A study of Homo sapiens with 27 samples.

Results

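The 45 genes described here work in the G2 phase of the cell cycle and in mitosis. They were taken by symbol from a table of 23228 gene symbols, in which all 45 are listed. By role, 13 act at the kinetochore or in the spindle checkpoint, 15 on the spindle or in cytokinesis, 15 are regulators, and TOP2A and MKI67 act on chromosomes. RNA sequencing of total RNA measured them in ARCaPM-DR, DU145-DR and 22Rv1-DR, sublines of human prostate cancer lines. The labels call them Ch-CRPC and do not name the drug, and the study is known for selecting such sublines with docetaxel. Docetaxel binds microtubules and blocks mitosis, and all 9 groups share the resistant background and an expressed hairpin. Each line carried shGATA2a or shGATA2b, hairpins against the transcription factor GATA2, or a random control hairpin, with 3 libraries in each group and 27 in all. Each line is represented by 1 resistant subline. The sources used here do not say if the 3 libraries of a group were grown apart, so every p-value refers to the variation among these libraries only, and that may be technical. "Knockdown" below means the 6 libraries of both hairpins of a line.

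At mitosis each pair of sister chromatids is captured by spindle microtubules at the kinetochore, a protein assembly built on centromeric chromatin. While any kinetochore is unattached, the spindle checkpoint holds back CDC20, the activator of the anaphase-promoting complex. Once all are attached, that ubiquitin ligase marks securin and cyclin B for destruction, separase cuts cohesin, and motors and the contractile ring divide the cell. Transcripts of these genes peak together in G2 and mitosis, under the DREAM complex, which represses them in resting cells, and under MYBL2 and FOXM1, which activate them.

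Such genes are known for a promoter motif called CHR, read by DREAM and its partners, often next to CCAAT boxes, which bind NF-Y. Promoters of 38 members, from 250 bases before to 50 after the gene start, were found in a RefSeq table on GRCh38.p14, while BUB3, TTK, BIRC5, TPX2, AURKA, UBE2C and FOXM1 had no entry. The CHR spelled TTTGAA, or TTCAAA on the other strand, was in 27 of the 38 (71.1%), against 15.4% of the 27305 promoters in the table. Either that or the related TTTAAA was in 84.2% of the members' promoters and 24.3% of all. CCAAT, or ATTGG on the other strand, was in 78.9% and 35.7%. Both a CHR of either spelling and a CCAAT box were in 68.4% and 9.49%. The GATA motifs AGATAA and TGATAA, or their complements TTATCT and TTATCA, were in 1 member promoter, that of HMMR (2.63%), and in 16.6% of all. These are matches of letters and were not tested as binding sites. The 4 promoters shown are those of MAD2L1, CENPF and NUF2, which passed the test in 2 lines each as deposited, and of CCNB2, a cyclin that passed in none. Both statements refer to the fit without the replicate block described below. They are written 5′ to 3′ on the gene's strand, with CHR and CCAAT matches of either strand in capitals. They lie at chr4:120066799-120067098 (minus strand), chr1:214602945-214603244 (plus), chr1:163321704-163322003 (plus) and chr15:59104896-59105195 (plus).
MAD2L1: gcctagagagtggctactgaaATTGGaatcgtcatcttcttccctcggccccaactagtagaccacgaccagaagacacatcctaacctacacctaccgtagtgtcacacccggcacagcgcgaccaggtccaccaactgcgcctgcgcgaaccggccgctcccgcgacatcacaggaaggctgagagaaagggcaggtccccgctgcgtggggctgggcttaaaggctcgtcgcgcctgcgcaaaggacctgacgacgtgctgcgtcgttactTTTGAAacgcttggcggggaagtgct
CENPF: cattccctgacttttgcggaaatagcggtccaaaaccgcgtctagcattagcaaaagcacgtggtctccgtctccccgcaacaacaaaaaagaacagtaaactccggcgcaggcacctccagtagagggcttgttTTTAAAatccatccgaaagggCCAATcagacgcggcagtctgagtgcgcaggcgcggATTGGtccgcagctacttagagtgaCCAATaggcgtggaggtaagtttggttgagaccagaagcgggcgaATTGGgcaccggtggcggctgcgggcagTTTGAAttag
NUF2: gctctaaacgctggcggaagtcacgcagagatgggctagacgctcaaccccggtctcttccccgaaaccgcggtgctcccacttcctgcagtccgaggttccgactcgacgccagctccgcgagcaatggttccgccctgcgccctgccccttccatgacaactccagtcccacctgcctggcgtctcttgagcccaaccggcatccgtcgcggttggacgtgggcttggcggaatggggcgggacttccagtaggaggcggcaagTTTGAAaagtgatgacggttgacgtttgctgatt
CCNB2: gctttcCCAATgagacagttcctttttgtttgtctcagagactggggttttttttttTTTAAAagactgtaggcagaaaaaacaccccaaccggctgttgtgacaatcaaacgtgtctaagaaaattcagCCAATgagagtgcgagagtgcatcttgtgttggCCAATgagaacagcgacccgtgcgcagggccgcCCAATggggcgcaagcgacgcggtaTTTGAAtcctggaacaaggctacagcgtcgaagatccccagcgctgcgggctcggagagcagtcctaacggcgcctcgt

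CENPF and CCNB2 hold 4 CCAAT boxes each and MAD2L1 holds 1, whereas NUF2 has a CHR and no CCAAT box in this window.

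The deposited values are read counts per gene scaled by library, called normalised reads here. They are not divided by gene length, so levels are compared only for the same gene. Recovered depth ran from 3.44 to 19.40 M reads with a median of 12.87 M, and the shallowest library was shGATA2a replicate 3 of ARCaPM-DR. No member was at 0 in any library, and all 45 passed the low-value filter in every line. GATA2 lay at 225 to 385 normalised reads in knockdown and 925 to 1255 in control libraries of DU145-DR, at 806 to 1738 and 3052 to 4307 in 22Rv1-DR, and at 17.3 to 46.6 and 145 to 173 in ARCaPM-DR. GATA2 values that are not whole reads, in the sense given next, number 7 for 22Rv1-DR libraries, 5 for those of DU145-DR and 0 for those of ARCaPM-DR. With round offsets removed and 4 of these values left out because no single offset made them whole, GATA2 was at 266 to 346 normalised reads in 4 knockdown and 725 to 955 in 3 control libraries of DU145-DR. In 22Rv1-DR it was then at 1401 to 1948 normalised reads in 6 knockdown libraries and at 3444 in the 1 control library left. Summed blood markers (5 genes) and endothelial markers (4 genes) stayed at 15.7 or less in every library.

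A property of the table touches the members. In each library nearly every value is a whole number of reads times 1 step (99.954% of 433407 values above 0, within 0.005 reads), but 199 values of 58 genes are not. Of the members' 1215 values, 20 are not whole, in FOXM1, CDK1, NUSAP1, PTTG1, KIF14 and CENPF. Of these 20, 18 are in control libraries and 15 are in 22Rv1-DR. Each of the 20 became whole, within 0.0005 reads, once a multiple of 100 normalised reads was taken off or, for FOXM1 in shGATA2a replicate 2 of 22Rv1-DR, added. The sources used here do not say how these values arose. The GATA2 ranges, the counts of members and the members with such values are given as deposited and, where that changes them, with these round offsets removed.

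In DU145-DR, 11 of 45 members rose with knockdown and 2 fell (24.4% and 4.44%), where 8.72% of all 13362 genes tested rose and 7.98% fell. The members' median log2 fold change was 0.11 in DU145-DR, beside -0.00 over all genes. In ARCaPM-DR, 2 members rose and 10 fell (4.44% and 22.2%), where 9.86% of 13079 genes rose and 8.62% fell, and the median was -0.16 beside -0.00. In 22Rv1-DR, none rose and 5 fell (11.1%), where 0.124% of 13757 genes rose and 0.276% fell, and the median was -0.37 beside -0.02. All 5 of those members have control values that are not whole. With the round offsets removed, limma called 0 members in 22Rv1-DR, where it called 0.00727% of all genes down, and the median was -0.31. At an unadjusted p under 0.05 there were 14 members. The share of all genes below that p is not given here, so this count does not set the members apart. Without the offsets, 11 members rose and 2 fell in DU145-DR (8.72% and 7.96% of all genes), and 2 rose and 11 fell in ARCaPM-DR (9.86% and 8.63%). On the reads as deposited, values that are not whole included, in 22Rv1-DR edgeR called 5 members down and none up and DESeq2 6 down and none up. Of all 13757 genes there, edgeR called 41 down and 16 up, and DESeq2 122 down and 63 up. Members with a negative fold change numbered 42 in 22Rv1-DR, 31 in ARCaPM-DR and 12 in DU145-DR. Every knockdown library lay above every control for 9 members of DU145-DR and below for 2 (10% and 8.74% of all genes). In ARCaPM-DR that held for 2 and 8 (11% and 10%), and in 22Rv1-DR for 0 and 9 (2.9% and 4.04%). With the round offsets removed the counts were 9 and 1 in DU145-DR (10% and 8.73%), 2 and 8 in ARCaPM-DR (11% and 10%), and 0 and 4 in 22Rv1-DR (2.88% and 3.86%), where CENPF, NUF2, KIF2C and ESPL1 were the 4.

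Over the 3 lines, 26 members passed in at least 1 line, 22 of them in 1 line and 4 in 2. BUB3 rose in DU145-DR and ARCaPM-DR, CENPF fell in 22Rv1-DR and ARCaPM-DR, and MAD2L1 and NUF2 rose in DU145-DR and fell in ARCaPM-DR. With the round offsets removed, 22 members passed in at least 1 line, 18 of them in 1 line and 4 in 2. KIF14, NUSAP1, CDK1 and PTTG1 then passed in no line and CENPF in ARCaPM-DR only, while FOXM1 passed in ARCaPM-DR beside DU145-DR. The 19 that passed in no line as deposited, without the replicate block given below, include all 3 cyclins of the list (CCNA2, CCNB1 and CCNB2), TOP2A and MKI67. In bulk RNA, a smaller share of dividing cells and less RNA of these genes per cell cannot be told apart.

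**Figure D1:**
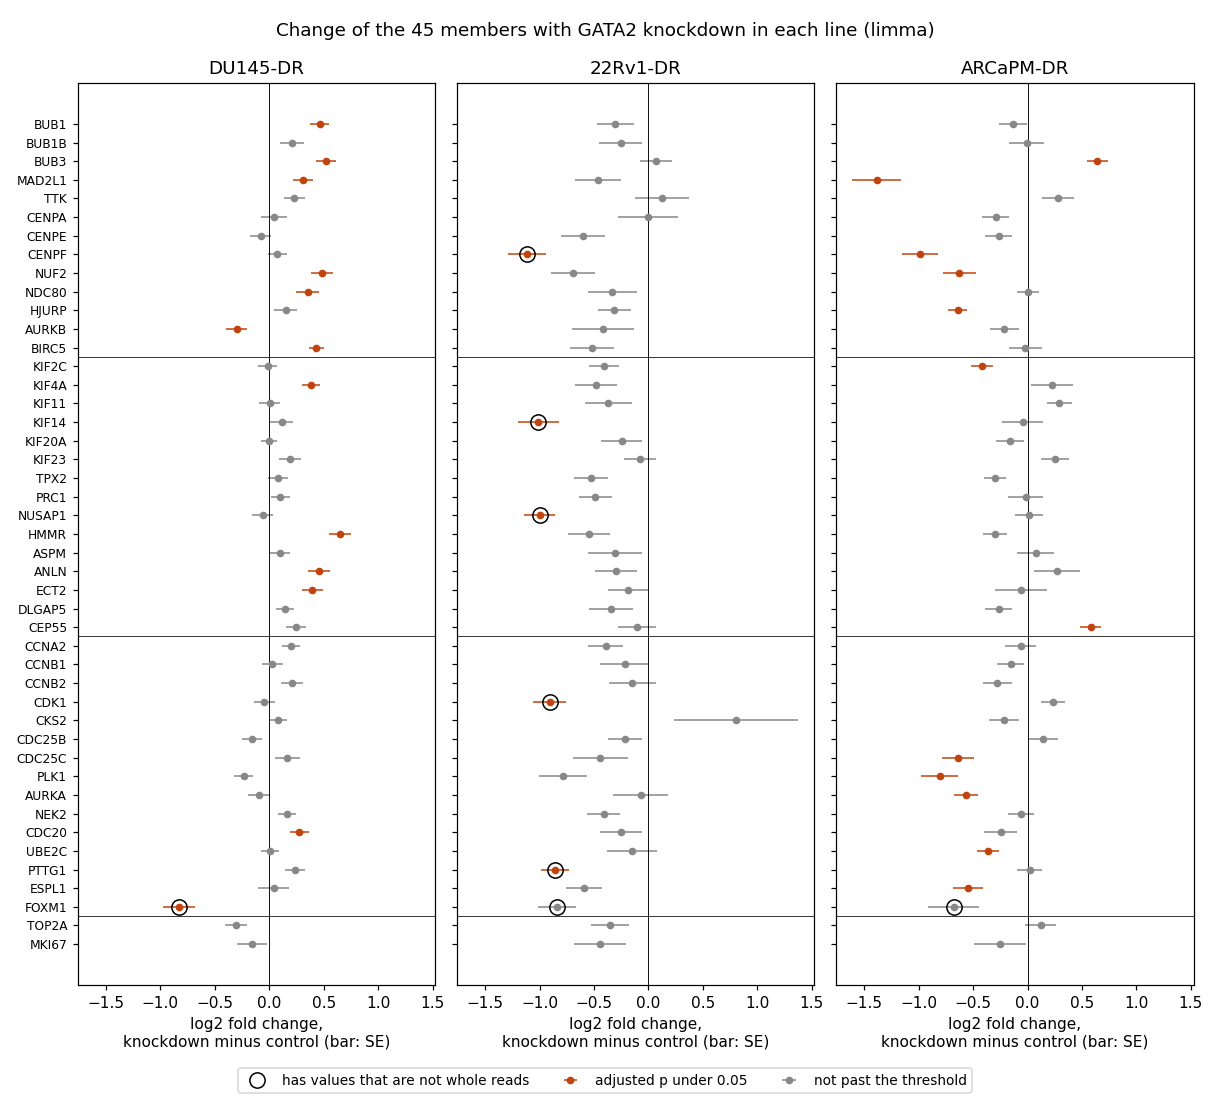
Log2 fold change of each member with knockdown against control in the 3 lines, with its SE from limma. Rows run from kinetochore and checkpoint genes through spindle and cytokinesis genes and regulators to TOP2A and MKI67, filled orange points passed an adjusted p of 0.05, and black rings mark members with values that are not whole reads in that line. Called members lie mostly right of 0 in DU145-DR (11 of 13) and left of 0 in ARCaPM-DR (10 of 12), and all 5 in 22Rv1-DR are ringed.

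Single libraries carry part of these counts. Leaving out control replicate 1 or control replicate 2 of DU145-DR left 5 members up, and leaving out control replicate 1 or control replicate 3 of ARCaPM-DR left 4 and 6 down. Without shGATA2a replicate 2 of ARCaPM-DR 4 rose. The 2 falls of DU145-DR became 1 without control replicate 1 or 2, shGATA2a replicate 2, or shGATA2b replicate 1 or 3. In 22Rv1-DR, 3 fell without control replicate 3 and 0 when any other library was left out. Of the calls, 6 of 13 in DU145-DR and 6 of 12 in ARCaPM-DR held whichever library was left out, and 0 of 5 in 22Rv1-DR did. The 22Rv1-DR controls were far apart: the median over members, relative to the mean of the 3 controls, was 0.37 in control replicate 1 and -0.19 and -0.15 in control replicates 2 and 3, against -0.24, -0.49 and -0.55 with shGATA2a and -0.10, -0.44 and -0.44 with shGATA2b. All 45 members were above the control mean in control replicate 1. Without it the median fold change in 22Rv1-DR was -0.16. CKS2, which binds cyclin-dependent kinases, was at 522, 530.4 and 578 normalised reads with shGATA2a and 606, 548 and 501 with shGATA2b, against 756, 577 and 69.3 in controls. Control replicate 3 was below and control replicate 1 above every knockdown library (log2 change 0.81, SE 0.57, adjusted p = 0.611).

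**Figure D2:**
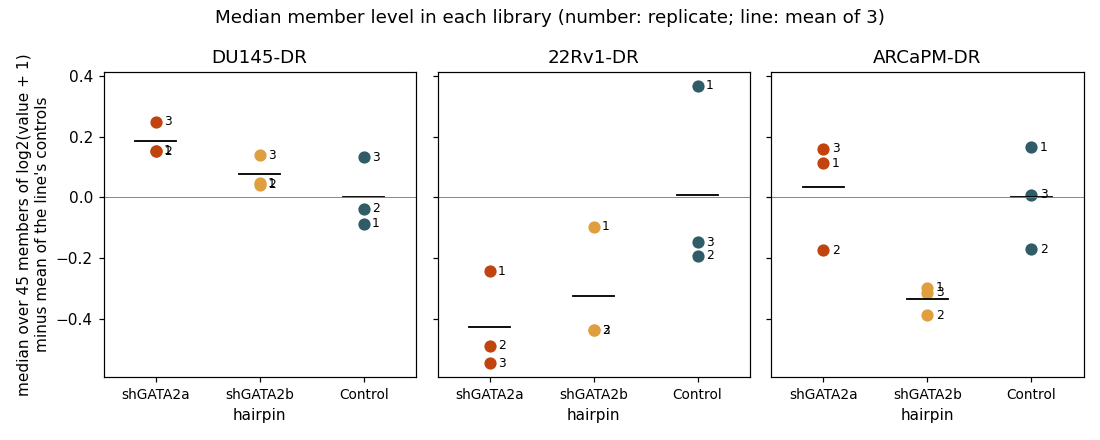
Median over the 45 members of log2(value + 1) minus the mean of the line's control libraries, for each library, by hairpin. Numbers beside points are replicates and short lines are means of 3 libraries. In DU145-DR every knockdown library lies above 0, as does control replicate 3 at 0.13, in ARCaPM-DR the 3 shGATA2b libraries lie below every other library, between -0.39 and -0.30, and in 22Rv1-DR control replicate 1 stands at 0.37, above the other 2 controls.

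The replicate number was also fitted as a block, here for DU145-DR and 22Rv1-DR and for ARCaPM-DR with the alternatives below. With the block, 18 members rose and 4 fell in DU145-DR, where 19.6% and 19.2% of all genes did. BUB1B, TTK, KIF23, CEP55, CCNA2, CCNB2 and PTTG1 then joined those that rose, and PLK1 and TOP2A those that fell. In 22Rv1-DR the block added FOXM1 to the 5 (0.741% of all genes fell), and with the block and the offsets removed only CENPF passed (0.305% fell). Elsewhere, members said to pass, rise or fall, or to pass in no line, are so in the fit without the block unless it is named.

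Among the kinetochore and checkpoint members, 6 of 13 rose and 1 fell in DU145-DR (46.2% and 7.69%, where 8.72% and 7.98% of all genes did). In ARCaPM-DR 1 rose and 4 fell (7.69% and 30.8%, where 9.86% and 8.62% of all genes did). In 22Rv1-DR only CENPF fell, as deposited (7.69%, where 0.276% of all genes fell). Medians of the 13 were -0.33 in 22Rv1-DR, -0.21 in ARCaPM-DR and 0.23 in DU145-DR. Whether the roles differ from each other was not tested.

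BUB3, a checkpoint protein that brings BUB1 and BUB1B to kinetochores, was at 6125, 5505 and 5948 normalised reads with shGATA2a and 5628, 4744 and 6030.1 with shGATA2b, against 3849.9, 3876 and 4076 in controls in DU145-DR. In ARCaPM-DR it was at 3744, 3449.9 and 3649.5 normalised reads with shGATA2a and 2851, 2909 and 2876 with shGATA2b, against 1949, 2343 and 1931 in controls. Knockdown and control libraries did not overlap in either line, and BUB3 rose in both (log2 change 0.52, SE 0.09, adjusted p = 0.00265 in DU145-DR; log2 change 0.64, SE 0.09, adjusted p = 0.00164 in ARCaPM-DR). In 22Rv1-DR, at 1717, 1479 and 1968 normalised reads with shGATA2a and 1749, 1639 and 2116 with shGATA2b, against 1867, 1684 and 1520.0 in controls, the groups overlapped (log2 change 0.07, SE 0.15, adjusted p = 0.878).

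MAD2L1 encodes MAD2, the checkpoint protein that blocks CDC20. In ARCaPM-DR it was at 299, 252 and 466 normalised reads with shGATA2a and 228, 241 and 342 with shGATA2b, against 898, 596 and 858 in controls, so that every knockdown library was below every control, and it fell with the largest fold of any member there (log2 change -1.38, SE 0.22, adjusted p = 0.00267). In DU145-DR it was at 1405, 1504 and 1600.2 normalised reads with shGATA2a and 1390.5, 1225 and 1479 with shGATA2b, against 1084, 1104 and 1281 in controls, with shGATA2b replicate 2 below the highest control, and it rose (log2 change 0.31, SE 0.09, adjusted p = 0.0362). That DU145-DR call was lost in 6 of 9 fits that left out a library. In 22Rv1-DR it was at 316, 316 and 368 normalised reads with shGATA2a and 351, 316 and 386 with shGATA2b, against 696, 459 and 324 in controls, and the groups overlapped (log2 change -0.46, SE 0.21, adjusted p = 0.499).

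CENPF, a large coiled-coil protein of the outer kinetochore, was at 2531, 2236 and 3568 normalised reads with shGATA2a and 1585, 2032 and 2012 with shGATA2b, against 5276, 3969.8 and 4270.4 in controls in ARCaPM-DR. The groups did not overlap, the shGATA2b libraries were the lowest, and CENPF fell (log2 change -0.99, SE 0.16, adjusted p = 0.00306). Its level in 22Rv1-DR was 1233, 961 and 960.2 normalised reads with shGATA2a and 1330.2, 1097 and 1012 with shGATA2b, against 2589, 1802 and 2823 in controls, where control replicate 2 is not whole and becomes 1502 once 300 is taken off. CENPF fell there as deposited (log2 change -1.11, SE 0.18, adjusted p = 0.0281). With the offset removed its fold change was -1.03 (adjusted p = 0.127; range 3.92e-06 to 0.127 over 22 alternatives). All 3 controls stayed above every knockdown library. In DU145-DR it was at 3282, 3092 and 2921 normalised reads with shGATA2a and 2689, 2744 and 2415 with shGATA2b, against 2460.5, 2614 and 3063 in controls, with overlap (log2 change 0.07, SE 0.09, adjusted p = 0.601).

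NUF2 and NDC80 are partners in the NDC80 complex, which couples kinetochores to microtubules. NUF2 was at 615, 615 and 738 normalised reads with shGATA2a and 626, 527 and 661 with shGATA2b, against 433, 453 and 463 in controls in DU145-DR and rose (log2 change 0.48, SE 0.10, adjusted p = 0.00756), and NDC80 rose as well (log2 change 0.35, SE 0.10, adjusted p = 0.0362). The NDC80 call held in 16 of 23 alternatives (adjusted p range 0.000228 to 0.255). In ARCaPM-DR, NUF2 was at 516, 389 and 509 normalised reads with shGATA2a and 336, 296 and 415 with shGATA2b, against 639.9, 542 and 688 in controls and fell (log2 change -0.63, SE 0.15, adjusted p = 0.0187), whereas NDC80, at 981, 969 and 929 normalised reads with shGATA2a and 701, 811 and 698 with shGATA2b, against 824, 902 and 791 in controls, lay above the controls in every shGATA2a library and below them in 2 of 3 shGATA2b libraries (log2 change 0.00, SE 0.10, adjusted p = 0.987). NUF2 groups did not overlap in either line.

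HJURP, the chaperone that loads the centromeric histone CENPA, was at 1586, 1630.4 and 1582 normalised reads with shGATA2a and 1129, 981 and 1028 with shGATA2b, against 2006, 2009 and 2025 in controls in ARCaPM-DR. The 3 controls lay close together, every shGATA2b library was below every shGATA2a library, and HJURP fell (log2 change -0.64, SE 0.09, adjusted p = 0.00105). CENPA itself did not pass in any line without the replicate block. BUB1, a checkpoint kinase, was at 1248, 1345 and 1435 normalised reads with shGATA2a and 1122, 1131 and 1317 with shGATA2b, against 913, 864 and 969.6 in controls in DU145-DR, without overlap, and rose (log2 change 0.46, SE 0.09, adjusted p = 0.00445).

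BIRC5 (survivin) and AURKB belong to the chromosomal passenger complex, which corrects faulty attachments. In DU145-DR they were called in opposite directions, but the AURKB call held in 14 of 23 alternatives only (adjusted p range 0.00325 to 0.524). BIRC5 was at 1966, 2019.9 and 1997 normalised reads with shGATA2a and 1884, 1815 and 1808 with shGATA2b, against 1352, 1395 and 1508 in controls and rose (log2 change 0.43, SE 0.07, adjusted p = 0.00259), whereas AURKB fell (log2 change -0.30, SE 0.09, adjusted p = 0.0474), with 681 to 808 normalised reads in knockdown and 813 to 1027 in control libraries. Of the other members of this role, BUB1B, TTK and CENPE did not pass in any line without the replicate block, with fold changes from -0.60 for CENPE in 22Rv1-DR to 0.28 for TTK in ARCaPM-DR.

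**Figure D3:**
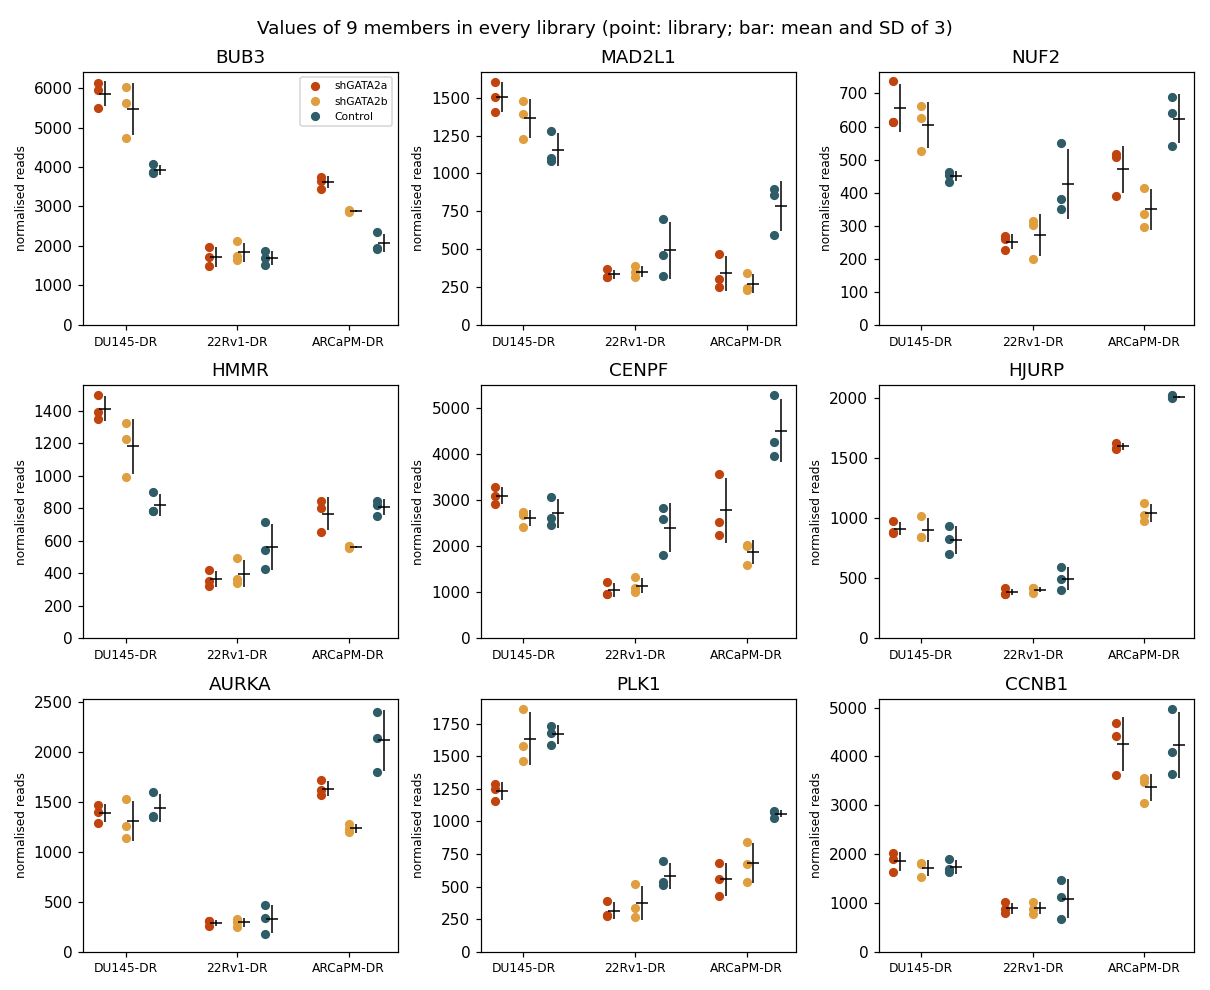
Normalised reads of 9 members in every library of the 3 lines, with shGATA2a, shGATA2b and control libraries from left to right. Points are libraries and bars are the mean and SD of 3 libraries. BUB3 is above its controls in DU145-DR and ARCaPM-DR, MAD2L1 and NUF2 are above them in DU145-DR (with 1 overlap in MAD2L1) and below them in ARCaPM-DR, and CCNB1 overlaps its controls in all 3 lines.

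Of the 15 spindle and cytokinesis members, 4 rose and none fell in DU145-DR (26.7% and 0%, where 8.72% and 7.98% of all genes did). In ARCaPM-DR 1 rose and 1 fell (6.67% each), near the shares of all genes in that line (9.86% and 8.62%). In DU145-DR no member of this role was below an unadjusted p of 0.05 in the downward direction, and edgeR and DESeq2 called 0 and 0 down. In 22Rv1-DR all 15 fold changes were negative and 2 passed as deposited, NUSAP1 and KIF14 (13.3%, where 0.276% of all genes fell).

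HMMR, which binds spindle poles, was at 1498, 1349 and 1394 normalised reads with shGATA2a and 1323, 992 and 1230.4 with shGATA2b, against 787, 782 and 899.5 in controls in DU145-DR, and rose the most of all members there (log2 change 0.65, SE 0.10, adjusted p = 0.00174). Its lowest knockdown library, shGATA2b replicate 2, was still above the highest control. The contractile ring scaffold ANLN was at 7306, 7014 and 7892 normalised reads with shGATA2a and 6631, 6095 and 7097 with shGATA2b, against 4654, 4663 and 6117 in controls in that line and rose (log2 change 0.45, SE 0.10, adjusted p = 0.0103), with shGATA2b replicate 2 just below control replicate 3. ECT2, which activates RhoA at the division site, also rose in DU145-DR (log2 change 0.40, SE 0.10, adjusted p = 0.0171). KIF4A, a motor on chromosome arms and at the midzone, was at 1371, 1438 and 1545 normalised reads with shGATA2a and 1389, 1308 and 1426 with shGATA2b, against 997, 1052 and 1206 in controls, without overlap, and rose (log2 change 0.38, SE 0.09, adjusted p = 0.0102). Reads of KIF4A could be split with its near-identical copy KIF4B, which was at 10.6 normalised reads or less in every library.

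In ARCaPM-DR, CEP55, which recruits the abscission machinery to the midbody, was at 1923, 1653 and 1877 normalised reads with shGATA2a and 1386, 1444 and 1446 with shGATA2b, against 1152, 1116 and 967 in controls. All knockdown libraries were above all controls, and it rose (log2 change 0.58, SE 0.10, adjusted p = 0.00349). KIF2C, a kinesin that takes microtubules apart, fell there (log2 change -0.42, SE 0.10, adjusted p = 0.0205), with 1127 to 1531 normalised reads in knockdown and 1542 to 2007 in control libraries. Without the replicate block, the motor KIF11, the midzone bundler PRC1 and the spindle assembly factor TPX2 passed in no line, nor did KIF20A and KIF23, kinesins of cytokinesis, ASPM or DLGAP5.

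In 22Rv1-DR the 2 spindle calls rest on values that are not whole. NUSAP1, a microtubule bundling protein, was at 775, 818 and 738 normalised reads with shGATA2a and 939.9, 895 and 713 with shGATA2b, against 1843, 1426 and 1615 in controls and fell (log2 change -1.0, SE 0.14, adjusted p = 0.0256). Its 3 control values, of which none is whole, become 1343, 1026 and 615 once 500, 400 and 1000 are taken off, and control replicate 3 is then below every knockdown library. The fold change became -0.23 (adjusted p = 0.706; range 5.5e-07 to 0.706 over 20 alternatives). KIF14, a kinesin needed for cytokinesis, was at 371, 269 and 294 normalised reads with shGATA2a and 405, 335 and 304 with shGATA2b, against 848, 655 and 514 in controls and fell (log2 change -1.01, SE 0.19, adjusted p = 0.0493). Taking 300 off control replicates 1 and 2 gave 548 and 355, so that the groups overlapped, and the fold change became -0.51 (adjusted p = 0.428; range 0.000367 to 0.464 over 22 alternatives).

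**Figure D4:**
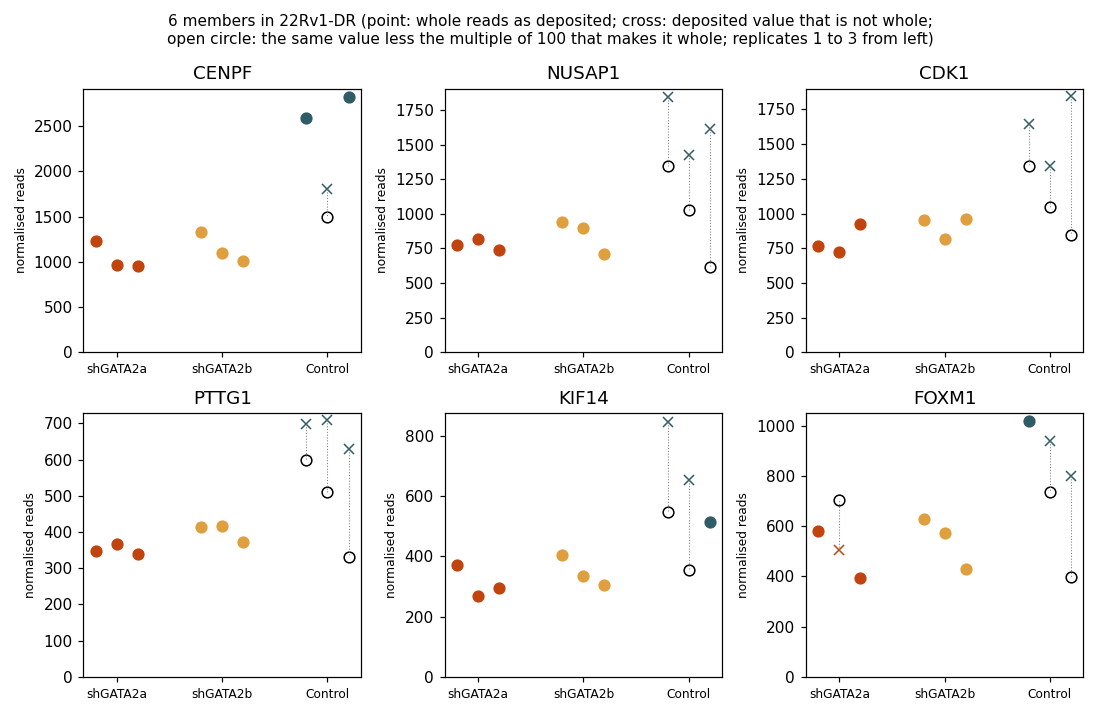
Normalised reads of the 6 members with values that are not whole reads, in 22Rv1-DR, by hairpin and replicate. Filled points are whole as deposited, crosses are deposited values that are not whole, and open circles are the same values after the multiple of 100 that makes them whole is removed. For NUSAP1, KIF14, CDK1, PTTG1 and FOXM1, all 3 controls lie above the knockdown libraries as deposited, and at least 1 lies among or below them once the offsets are removed.

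Of the regulators, 1 of 15 rose (CDC20) and 1 fell (FOXM1) in DU145-DR (6.67% each), near the shares of all genes (8.72% and 7.98%). In ARCaPM-DR none rose and 5 fell (0% and 33.3%, where 9.86% and 8.62% of all genes did). With the offsets removed, 6 fell there, FOXM1 included (8.63% of all genes). In ARCaPM-DR, no regulator was below an unadjusted p of 0.05 in the upward direction, and edgeR and DESeq2 called 0 and 0 up. In 22Rv1-DR, CDK1 and PTTG1 fell as deposited (13.3%, where 0.276% of all genes fell). Medians of the 15 were -0.39 in 22Rv1-DR, -0.25 in ARCaPM-DR and 0.04 in DU145-DR.

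Cyclins CCNA2 and CCNB2, the centrosome kinase NEK2, the CDK1-activating phosphatase CDC25B and CKS2 passed in no line without the replicate block. CCNB1, the main mitotic cyclin, was at 2018, 1639.8 and 1894 normalised reads with shGATA2a and 1798, 1524 and 1819 with shGATA2b, against 1907, 1636 and 1688 in controls in DU145-DR. It was at 1009.6, 882 and 785 normalised reads with shGATA2a and 1017, 880.1 and 774 with shGATA2b, against 1463, 1129 and 664 in controls in 22Rv1-DR, where the controls span more than all knockdown libraries. In ARCaPM-DR it was at 4427, 3627 and 4691 normalised reads with shGATA2a and 3478, 3055 and 3558 with shGATA2b, against 4963, 3644 and 4084 in controls. Groups overlapped in each line (log2 change 0.03, SE 0.10, adjusted p = 0.867 in DU145-DR; log2 change -0.22, SE 0.22, adjusted p = 0.718 in 22Rv1-DR; log2 change -0.16, SE 0.13, adjusted p = 0.428 in ARCaPM-DR).

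CDK1 is the kinase that cyclin B activates. In DU145-DR it was at 1743, 1847 and 2113 normalised reads with shGATA2a and 1882, 1458 and 1713 with shGATA2b, against 1827, 1739.5 and 1960.0 in controls, with overlap (log2 change -0.05, SE 0.10, adjusted p = 0.781). In ARCaPM-DR it was at 2308, 1951 and 2332 normalised reads with shGATA2a and 1392, 1446 and 1606 with shGATA2b, against 1425, 1757 and 1435 in controls, above every control with shGATA2a and among or below them with shGATA2b (log2 change 0.23, SE 0.11, adjusted p = 0.178). Its level in 22Rv1-DR was 769, 724 and 924 normalised reads with shGATA2a and 954, 813 and 958 with shGATA2b, against 1643, 1344 and 1844 in controls, and it fell as deposited (log2 change -0.91, SE 0.15, adjusted p = 0.0321). None of its 3 control values is whole there. They become 1343, 1044 and 844 once 300, 300 and 1000 are taken off, and control replicate 3 then lies among the knockdown libraries. The fold change became -0.31 (adjusted p = 0.544; range 1.55e-05 to 0.544 over 20 alternatives).

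The mitotic kinases PLK1 and AURKA both fell in ARCaPM-DR. PLK1 was at 556, 679.8 and 431 normalised reads with shGATA2a and 670.0, 842 and 535 with shGATA2b, against 1071, 1029 and 1079 in controls (log2 change -0.81, SE 0.17, adjusted p = 0.0100) and AURKA, which matures centrosomes and spindle poles, was at 1717, 1565 and 1621 normalised reads with shGATA2a and 1228, 1195 and 1279.9 with shGATA2b, against 2405, 1801 and 2144 in controls (log2 change -0.57, SE 0.11, adjusted p = 0.00595). Neither overlapped its controls. In DU145-DR, PLK1 was at 1159, 1247 and 1291 normalised reads with shGATA2a and 1583, 1860.0 and 1467 with shGATA2b, against 1589, 1682 and 1732 in controls, with 5 of 6 knockdown libraries below every control and shGATA2b replicate 2 above them all (log2 change -0.24, SE 0.09, adjusted p = 0.0879), and AURKA was at 1293, 1404 and 1473 normalised reads with shGATA2a and 1140.3, 1258 and 1529 with shGATA2b, against 1349.6, 1363 and 1603 in controls (log2 change -0.09, SE 0.10, adjusted p = 0.563). In 22Rv1-DR, PLK1 was at 279, 389 and 275 normalised reads with shGATA2a and 521, 335 and 264 with shGATA2b, against 700.1, 535 and 511 in controls, with only shGATA2b replicate 1 above the lowest control (log2 change -0.79, SE 0.22, adjusted p = 0.276). AURKA was at 305, 303 and 257 normalised reads with shGATA2a and 332, 298 and 251 with shGATA2b, against 464, 343 and 177 in controls there, with controls on both sides of all knockdown libraries (log2 change -0.07, SE 0.26, adjusted p = 0.935).

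Of the other regulators, CDC25C, UBE2C and ESPL1 fell in ARCaPM-DR, while CCNB1, CCNB2, CDK1, CDC20, CDC25B and PTTG1 did not pass there without the replicate block. CDC25C, a phosphatase that activates CDK1, was at 131, 158 and 148 normalised reads with shGATA2a and 120.1, 102 and 114 with shGATA2b, against 225, 169 and 207 in controls, without overlap (log2 change -0.64, SE 0.15, adjusted p = 0.0145). UBE2C, the E2 enzyme of the anaphase-promoting complex, also fell (log2 change -0.37, SE 0.10, adjusted p = 0.0319), as did separase, ESPL1 (log2 change -0.55, SE 0.14, adjusted p = 0.0203), each with 1 knockdown library inside the range of the controls. CDC20, the target of the checkpoint, rose in DU145-DR (log2 change 0.28, SE 0.08, adjusted p = 0.0422), and 8 of 9 fits that left out a library lost that call.

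PTTG1, securin, was at 347, 366 and 338 normalised reads with shGATA2a and 413, 416 and 373 with shGATA2b, against 698, 709.9 and 630.1 in controls in 22Rv1-DR and fell as deposited (log2 change -0.86, SE 0.13, adjusted p = 0.0256). Again none of the 3 controls is whole, and they become 598, 510 and 330 once 100, 200 and 300 are taken off, which puts control replicate 3 below all knockdown libraries. The fold change became -0.31 (adjusted p = 0.560; range 6.67e-07 to 0.560 over 20 alternatives). In DU145-DR it was at 1108, 1039 and 962 normalised reads with shGATA2a and 970.1, 760.4 and 915 with shGATA2b, against 824, 828 and 778 in controls (log2 change 0.23, SE 0.09, adjusted p = 0.105), and in ARCaPM-DR at 1553, 1472 and 1430.3 normalised reads with shGATA2a and 1087, 1043 and 985 with shGATA2b, against 1458, 1062 and 1188 in controls (log2 change 0.02, SE 0.11, adjusted p = 0.930), both with overlap. Its copies PTTG2 and PTTG3P, with which reads could be split, were at 1.44 normalised reads or less.

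FOXM1, the transcription factor of G2 and mitosis genes, was at 599, 809 and 892 normalised reads with shGATA2a and 696, 1056 and 932 with shGATA2b, against 1240.4, 1631 and 1509.9 in controls in DU145-DR. Knockdown and control libraries did not overlap, and FOXM1 fell, in contrast to most called members of that line (log2 change -0.83, SE 0.15, adjusted p = 0.00365). None of the 3 controls is whole. They become 1040, 1131 and 1410 without offsets of 200, 500 and 100, with shGATA2b replicate 2 then above control replicate 1, and the fold change became -0.54 (adjusted p = 0.0322; range 7.12e-09 to 0.0322 over 20 alternatives). Its level in 22Rv1-DR was 581, 503 and 395 normalised reads with shGATA2a and 629, 571 and 428 with shGATA2b, against 1019, 937 and 798 in controls (log2 change -0.84, SE 0.18, adjusted p = 0.0917), and with 200 and 400 taken off control replicates 2 and 3 and 200 added to shGATA2a replicate 2 the fold change was -0.31 (adjusted p = 0.692; range 0.00479 to 0.692 over 22 alternatives). In ARCaPM-DR it was at 1037, 1207 and 785 normalised reads with shGATA2a and 929.9, 1360.4 and 678 with shGATA2b, against 1657, 1895 and 1204 in controls (log2 change -0.68, SE 0.23, adjusted p = 0.0676). There control replicate 2 and shGATA2b replicate 2 are not whole, and without offsets of 200 and 300 the fold change was -0.69 (adjusted p = 0.0312; range 2.46e-06 to 0.224 over 22 alternatives).

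TOP2A, which untangles chromosomes, and MKI67, which coats them, passed in no line without the replicate block. In the blocked limma fit TOP2A fell in DU145-DR (adjusted p = 0.000409) and MKI67 fell in ARCaPM-DR (adjusted p = 0.0356). The values that follow are from the fit without the block. TOP2A had a fold change of -0.31 (SE 0.10, adjusted p = 0.0627) in DU145-DR. MKI67 had -0.45 in 22Rv1-DR, -0.25 in ARCaPM-DR and -0.15 in DU145-DR, with adjusted p of 0.471 or more. The summed level of the 45 members was 90873 ± 5339 normalised reads in knockdown (SD, n = 6) and 83658 ± 7958 in control libraries (n = 3) of DU145-DR. It was 26688 ± 2537 and 36829 ± 7340 in 22Rv1-DR (26721 ± 2508 and 34962 ± 7899 with the offsets removed), and 102905 ± 19876 and 105799 ± 8724 in ARCaPM-DR.

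**Figure D5:**
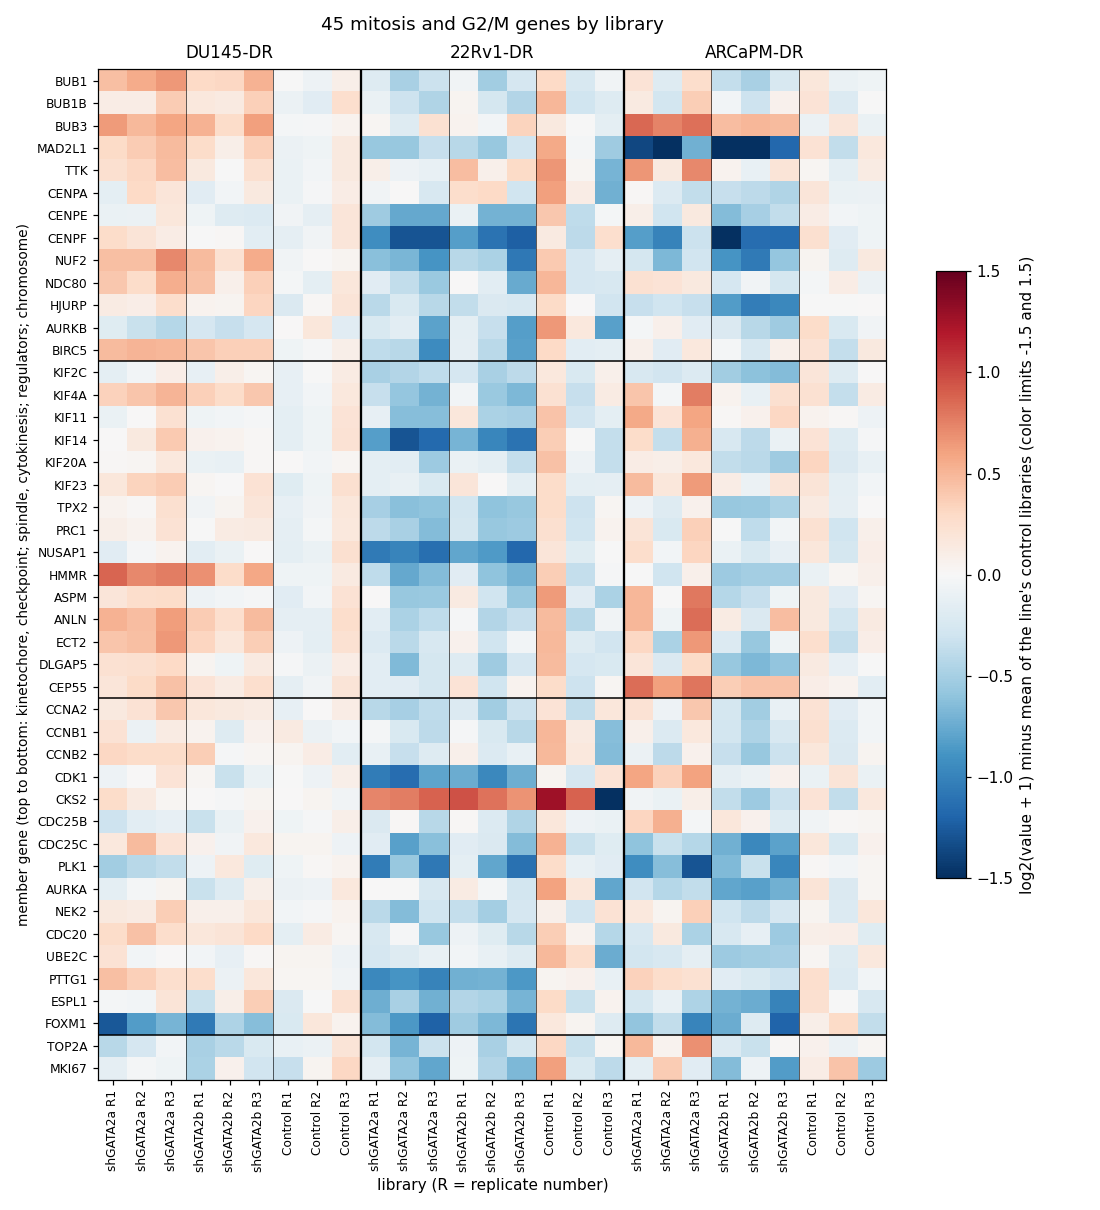
Log2(value + 1) of each member in each library minus the mean of that line's control libraries, with red above and blue below that mean and colours limited to 1.5 either way. Columns are libraries by line and hairpin and rows are members by role. In ARCaPM-DR the shGATA2b columns are bluer than the shGATA2a columns for 44 of 45 members by their means, and in 22Rv1-DR control replicate 1 is red throughout.

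Between the 2 hairpins, the widest differences were in ARCaPM-DR, where 1 member passed the test without the replicate block and 32 with it. The mean of shGATA2b was below that of shGATA2a for 44 of 45 members, where it was so for 52.5% of all genes. All 3 shGATA2b libraries lay below all 3 shGATA2a libraries for 26 members and above for 0, where they did for 8.95% and 7.39% of all genes. The median difference, shGATA2b minus shGATA2a, was -0.38. Medians against control were 0.08 with shGATA2a and -0.32 with shGATA2b. PLK1 alone was higher with shGATA2b. Without the block, only HJURP passed the test of this difference (log2 difference -0.61, adjusted p = 0.0251), where 0.596% of all genes were lower with shGATA2b, and 29 members lay below an unadjusted p of 0.05. With the block, 4.73% of all genes were higher and 7.73% lower with shGATA2b. DESeq2 called 6 members and edgeR 1. For the unadjusted, DESeq2 and edgeR counts no share of all genes is given here, so they do not set the members apart. With limma, 9 were called without shGATA2a replicate 2, 1 without control replicate 2, and 0 when any other library of the line was left out.

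By role, the median difference between hairpins in ARCaPM-DR was -0.38 for kinetochore members, -0.36 for spindle members and -0.38 for regulators. Spindle members had medians of 0.16 with shGATA2a and -0.24 with shGATA2b, and ASPM, which works at spindle poles, had 0.43 and -0.28. DLGAP5, a spindle assembly factor, had 0.08 and -0.61, and its hairpin difference of -0.70 had an adjusted p of 0.0621. Fibroblast markers moved with the knockdown in ARCaPM-DR: their sum over 5 genes was 5683 to 14927 normalised reads in knockdown and 2366 to 4772 in control libraries. It came from COL1A1 and COL3A1, while DCN, LUM and PDGFRB were at 4.98 or less, and its part in the members' change was not tested. The sum was 97.7 to 179 and 169.7 to 219 in DU145-DR, and 1296 to 1988 and 1380.4 to 4298 in 22Rv1-DR, where LUM reached 661.

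In the other lines no member passed the test between hairpins with limma, edgeR or DESeq2, all without the replicate block. In DU145-DR the median difference was -0.12, the mean of shGATA2b was lower for 38 of 45 members (53.3% of all genes), all 3 shGATA2b libraries lay below all 3 of shGATA2a for 6 and above for 1 (5.28% and 4.65% of all genes), and 6 members lay below an unadjusted p of 0.05. In 22Rv1-DR the median difference was 0.11, the mean of shGATA2b was lower for 3 (53.8% of all genes), or 4 with the offsets removed, all 3 shGATA2b libraries lay below all 3 of shGATA2a for 0 and above for 1 (1.16% and 1.05% of all genes), and 0 lay below that p. The unadjusted counts of both lines have no share of all genes beside them.

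The change with knockdown was compared between lines in a fit of all 27 libraries. It was lower in 22Rv1-DR than in DU145-DR for 9 members (0.621% of all genes), lower in ARCaPM-DR than in DU145-DR for 6 (3.41%), and higher in ARCaPM-DR than in 22Rv1-DR for 6 (2.19%). None of the 45 passed limma in the other direction, in which 0, 0 and 1 lay below an unadjusted p of 0.05, edgeR called none and DESeq2 called 1 in the last pair (0.464%, 3.71% and 1.2% of all genes passed limma in that direction, and 0.425%, 3.73% and 1.18% with the round offsets removed). With the round offsets removed, these counts were 5, 6 and 2 (0.523%, 3.44% and 2.12% of all genes). The first count was 5 without control replicate 2 of DU145-DR and the last was 3 without control replicate 3 of ARCaPM-DR. With the replicate block, 27 were lower in the first pair (5.62% of all genes). The comparisons share lines, and each is given by its own values.

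Between ARCaPM-DR and DU145-DR, no called member has values that are not whole in these lines. MAD2L1 changed by -1.38 in ARCaPM-DR and 0.31 in DU145-DR, a difference of -1.69 (SE 0.28, adjusted p = 0.000411). NUF2 changed by -0.63 and 0.48, a difference of -1.11 (SE 0.23, adjusted p = 0.00315). For these genes the fall in ARCaPM-DR and the rise in DU145-DR each passed as well. HJURP, with -0.64 and 0.15, differed by -0.79 (SE 0.16, adjusted p = 0.00274), and CENPF, with -0.99 and 0.07, by -1.06 (SE 0.22, adjusted p = 0.00301). BUB1 and HMMR completed the 6.

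Between 22Rv1-DR and DU145-DR, PTTG1 had the smallest p, with -0.86 and 0.23 and a difference of -1.09 (SE 0.14, adjusted p = 0.000642), but with the offsets removed the difference was -0.55 (adjusted p = 0.184). NUSAP1, with -1.0 and -0.06, differed by -0.94 (SE 0.17, adjusted p = 0.00667), and by -0.17 (adjusted p = 0.817) with the offsets removed. HMMR, with whole values throughout, changed by -0.55 in 22Rv1-DR and 0.65 in DU145-DR and differed by -1.19 (SE 0.20, adjusted p = 0.00326). CENPF differed by -1.19 (SE 0.22, adjusted p = 0.00636), and by -1.10 (adjusted p = 0.0257) with the offset removed. BUB1, NUF2 and BIRC5, all whole, also differed, and KIF14 and CDK1 did so only as deposited.

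Between ARCaPM-DR and 22Rv1-DR, the 4 members with the smallest p all have values that are not whole in 22Rv1-DR. CDK1, with 0.23 and -0.91, differed by 1.14 (SE 0.17, adjusted p = 0.000383), PTTG1 by 0.87 (SE 0.14, adjusted p = 0.00101), NUSAP1 by 1.01 (SE 0.17, adjusted p = 0.00116) and KIF14 by 0.96 (SE 0.24, adjusted p = 0.0245). With the offsets removed their differences were 0.54 (adjusted p = 0.109), 0.33 (adjusted p = 0.414), 0.24 (adjusted p = 0.666) and 0.46 (adjusted p = 0.345). The remaining calls, BUB3 and CEP55, have whole values and held.

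Genes that work with the members were counted from lists of known complexes, beside the shares of all genes given above (8.72% up and 7.98% down in DU145-DR, 9.86% and 8.62% in ARCaPM-DR). Of 33 other kinetochore genes, 4 rose and 0 fell in DU145-DR (12.1% and 0%), and 1 rose and 4 fell in ARCaPM-DR (3.03% and 12.1%). CENPH, of the inner kinetochore, rose in both lines, at 281 ± 36.8 normalised reads in knockdown and 157 ± 10.5 in control libraries of DU145-DR (log2 fold change 0.83, adjusted p = 0.00118) and at 630.5 ± 137 and 282 ± 8.61 in ARCaPM-DR (log2 change 1.13, adjusted p = 0.00113; SD, n = 6 and 3). In ARCaPM-DR, INCENP of the chromosomal passenger complex (-0.68) and MIS12 of the outer kinetochore (-0.67) fell.

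Of 24 other spindle genes, 4 rose and 1 fell in DU145-DR (16.7% and 4.17%), 2 rose and 3 fell in ARCaPM-DR (8.33% and 12.5%), and 1 fell in 22Rv1-DR (4.17%). CIT, the citron kinase of cytokinesis, rose in DU145-DR (0.56) and ARCaPM-DR (0.66). RACGAP1, the centralspindlin partner of KIF23, rose in DU145-DR (0.32) and fell in 22Rv1-DR (-0.98), where 2 of its values are not whole and it no longer passed with offsets removed. Of 19 condensin and cohesin genes, 2 rose and 1 fell in DU145-DR (10.5% and 5.26%), and 2 rose and 2 fell in ARCaPM-DR (10.5% each), near the shares of all genes. The cohesin subunits STAG2 and STAG1 were the ones that rose in both lines (STAG2 by 0.73 and 0.93, STAG1 by 0.42 and 0.54).

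Of 24 other regulators, 2 rose and 1 fell in DU145-DR (8.33% and 4.17%), and 0 rose and 6 fell in ARCaPM-DR (0% and 25%). MYBL2, an activator of G2 and mitosis genes, fell in DU145-DR, at 1207 ± 242 normalised reads in knockdown and 2560.5 ± 322 in control libraries (log2 fold change -1.10, adjusted p = 0.000906; SD, n = 6 and 3). UBE2S, an E2 enzyme that works with UBE2C, rose in DU145-DR (0.43) and fell in ARCaPM-DR (-0.88). LIN52, a subunit of DREAM, fell in ARCaPM-DR (-0.97). Of 14 subunits of the anaphase-promoting complex, 13 were tested, 3 rose and 0 fell in DU145-DR (23.1% and 0%), and 3 rose and 1 fell in ARCaPM-DR (23.1% and 7.69%), with ANAPC13 and CDC26 among those that rose in both. In 22Rv1-DR no gene of the kinetochore, condensin and cohesin, regulator and anaphase-promoting complex lists passed limma's threshold. At an unadjusted p under 0.05, 10, 5, 6 and 0 of them were lower there and 0, 0, 0 and 1 higher. The share of all genes at that p is not given here, so these counts do not set the lists apart. On the reads as deposited, edgeR called none of them and DESeq2 called 2 kinetochore genes down.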

How the data were processed

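Total RNA of 27 libraries was sequenced, and reads were aligned to hg19 with TopHat2 2.0.9 and processed with Cufflinks 1.3.0, per the submitters' processing notes. The sources used here do not give the counter, the scaling or the use of strand, so reads of a gene and an overlapping antisense gene cannot be told apart. The deposited table holds a normalised signal, gene counts divided by a factor per library. Of the deposited values above 0, 99.954% were whole reads within 0.005 reads of a step per library, which gave the depth, and 199 were not. The offset removed from these values, a multiple of 100 that alone makes the value whole, was chosen after seeing the data. A value that no single multiple made whole was set missing there.

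Genes at 10 or more in at least 3 libraries of a line were tested. limma 3.58.1 (R 4.3.3, trend) was fitted to log2(value + 1) in each line, with the mean of both hairpins against control, and to all 27 libraries for differences between lines. Fold changes on this scale understate the change of low genes. Benjamini-Hochberg adjustment ran over all genes tested, with a threshold of 0.05. The model was tested on simulated counts of independent libraries, with no effect of replicate number and only whole reads. That test does not cover these features of the data. On the whole reads, edgeR 4.0.16 called 1132 genes up and 1228 down in DU145-DR, 16 and 41 in 22Rv1-DR, and 1245 and 1237 in ARCaPM-DR. DESeq2 1.42.0 called 1349 and 1350, 63 and 122, and 1630 and 1505.

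Libraries of a line with the same replicate number deviated together in DU145-DR (lowest correlation of a pair 0.275) and in 22Rv1-DR (0.211). A blocked fit is given in the main account for these lines. In ARCaPM-DR the lowest was 0.0559 and the median 0.583, and its blocked fit is given with the alternatives. The 45 members, the roles and the other gene lists were chosen with earlier results of these data known. Values in every library are given for the called members of each line, at most the 8 with the smallest adjusted p, and for CCNB1, CDK1, PLK1, AURKA, FOXM1, BUB3, MAD2L1, CENPF and PTTG1. NDC80 in ARCaPM-DR and CKS2 in 22Rv1-DR were added after their values were seen, as were ASPM and DLGAP5 in the comparison of hairpins. For differences between lines, the 4 members with the smallest p in each pair are described, and at most 3 genes of each other list.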

Additional observations from a re-analysis of the deposited data

Results flagged for a closer look

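The change with knockdown differed between lines by limma's test of the difference in the fit of all 27 libraries for 21 pairings of a member and 2 lines. Log2 differences of 22Rv1-DR minus DU145-DR were -0.77 for BUB1, -1.19 for CENPF, -1.17 for NUF2, -0.95 for BIRC5, -1.12 for KIF14, -0.94 for NUSAP1, -1.19 for HMMR, -0.86 for CDK1 and -1.09 for PTTG1. Of these, KIF14, NUSAP1, CDK1 and PTTG1 no longer passed with the round offsets removed. Log2 differences of ARCaPM-DR minus DU145-DR were -0.60 for BUB1, -1.69 for MAD2L1, -1.06 for CENPF, -1.11 for NUF2, -0.79 for HJURP and -0.95 for HMMR. Log2 differences of ARCaPM-DR minus 22Rv1-DR were 0.57 for BUB3, 0.96 for KIF14, 1.01 for NUSAP1, 0.69 for CEP55, 1.14 for CDK1 and 0.87 for PTTG1, of which BUB3 and CEP55 passed with the offsets removed.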

How the results depend on the processing

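With the replicate block, alone or with values that are not whole set missing or their offsets removed, 18 members rose in DU145-DR, 6 rose and 19 fell in ARCaPM-DR (22.4% and 22.6% of all genes), and hairpins differed for 1 member in DU145-DR (1.24% of all genes were higher and 0.928% lower with shGATA2b) and 32 in ARCaPM-DR (4.73% and 7.73%). With the block alone, TTK, KIF11, KIF23 and ANLN joined those that rose in ARCaPM-DR. CENPA, CENPE, TPX2, HMMR, DLGAP5, CCNB2, CDC20, FOXM1 and MKI67 joined those that fell there. In ARCaPM-DR the lowest correlation of same-numbered libraries was 0.0559, and 7 of 9 libraries correlated best with their own number. The median correlation of same-numbered libraries there, 0.583, was above those of DU145-DR (0.393) and 22Rv1-DR (0.409). The numbers were not taken to pair these libraries in the main account, and whether they do was not settled. Falls in DU145-DR numbered 1 with no filter, with values not whole set missing, with their genes left out and in the fit of all 27 libraries, and 4 with quantile normalisation, with the block and with block and offsets removed. That joint fit gave 3 rises in DU145-DR, 12 falls in 22Rv1-DR and 4 hairpin differences in ARCaPM-DR, where DESeq2 gave 6. These counts use the values as deposited, those that are not whole included, and the shares of all genes beside them are not given here. Falls in 22Rv1-DR numbered 0 with values not whole set missing, their genes left out or their offsets removed, and 1 with the block added to the first or last of these. Differences of 22Rv1-DR minus DU145-DR numbered 27 with the block, 5 with values missing or offsets removed, 4 with genes left out, and 24 and 23 with block and offsets removed or values missing. Differences of ARCaPM-DR minus DU145-DR numbered 14 with the block, 1 higher and 13 lower (10.9% and 9.63% of all genes). Those of ARCaPM-DR minus 22Rv1-DR numbered 14 with the block, 13 higher and 1 lower (8.44% and 6.47%), 2 with values missing, genes left out or offsets removed, and 11 with the block added to missing values or removed offsets.

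Leaving out a library gave 5 to 13 rises and 1 to 2 falls in DU145-DR, 0 to 3 falls in 22Rv1-DR, 2 to 4 rises and 4 to 11 falls in ARCaPM-DR, and 0 to 9 hairpin differences there. Differences between lines numbered 5 to 13, 5 to 7 and 3 to 7 in the order above. The median change in 22Rv1-DR ran from -0.51 to -0.16. Signs turned only for named members that did not pass: CCNB1 (-0.0148 with quantile normalisation, -0.016 to 0.095 on leaving out a library) and CDK1 (-0.089 to 0.0033) in DU145-DR, BUB3 (-0.0061 to 0.14), CCNB1 (-0.54 to 0.033) and AURKA (-0.46 to 0.23) in 22Rv1-DR, and PTTG1 in ARCaPM-DR (-0.000929 with edgeR, -0.085 to 0.14). The causes were not tested. With 3 libraries in a group, depth and number limit small changes of low genes such as CDC25C.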

Other observations

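Genes of the G1 and S phases were counted beside the members. Of 25 such genes, 2 rose and 1 fell in DU145-DR (8% and 4%, where 8.72% and 7.98% of all genes did), 0 rose and 5 fell in ARCaPM-DR (0% and 20%, where 9.86% and 8.62% of all genes did), and none passed in 22Rv1-DR, where 0 were higher and 4 lower at an unadjusted p under 0.05 and edgeR and DESeq2 called none. Those unadjusted counts have no share of all genes beside them and do not set the list apart. PCNA, the sliding clamp of DNA replication, fell in ARCaPM-DR (log2 fold change -0.93, adjusted p = 0.00645 by limma), as did TYMS, which makes thymidylate (-0.64). CCND1, cyclin D1, rose in DU145-DR (0.43) and fell in ARCaPM-DR (-0.32).

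Of 20 genes of cell cycle arrest, 2 rose and 1 fell in DU145-DR (10% and 5%), and 1 rose and 1 fell in ARCaPM-DR (5% each), near or below the shares of all genes. CDKN1B, the inhibitor p27, rose in ARCaPM-DR (0.93, adjusted p = 0.000496 by limma) and CDKN2D, an inhibitor of CDK4 and CDK6, fell there (-1.39). GADD45A, a stress response gene, rose in DU145-DR (0.68). In 22Rv1-DR none passed limma, edgeR or DESeq2, and 2 were higher and 3 lower at an unadjusted p under 0.05, again without a share of all genes.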
